A study of Mus musculus with 4 samples.

Results

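Peaks of N6-methyladenosine (m6A) that lay in single-exon transcripts numbered 343 of 21031 peaks in KO macrophages and 315 of 16709 peaks in WT macrophages. They were the peaks whose deposited annotation named the only exon of a transcript, leaving out the mitochondrial chromosome and assigned genes with a predicted name (Gm followed by a number) or a name ending in Rik. Before those were left out, 899 KO and 799 WT peaks carried such an annotation. A further deposited table of peaks that differed between the genotypes held 6050 peaks, of which 52 met the same rule.

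The libraries came from macrophages grown from bone marrow of C57BL/6 mice with macrophage colony-stimulating factor for 7 days. KO cells had the genotype LysM-cre, Mettl3fl/fl, in which a Cre recombinase driven by the lysozyme 2 locus acts in myeloid cells, and WT cells had the genotype Mettl3fl/fl, so both carried the floxed alleles. In m6A-seq, an anti-m6A antibody pulls marked fragments out of poly(A) RNA for the IP library, and RNA set aside before the pull-down gives the input library. Each genotype had 1 IP and 1 input library, 4 in all, so no difference between the genotypes has a replicate check and none was tested here. The files hold no read totals and the depth is unknown. The exact binomial intervals, at 95%, reflect counting error alone and treat each peak as independent, although some peaks lie in the same transcript.

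METTL3 is the catalytic subunit of the complex that writes m6A on nascent messenger RNA. In spliced transcripts, the protein complexes left at exon junctions keep m6A away from the surrounding bases, so that the mark lies mostly in long exons and near stop codons. A transcript with 1 exon has no junction, and its whole length is open to the mark in that respect. Intronless genes of mammals include those of replication-dependent histones, the inducible HSP70 proteins, many G protein-coupled receptors and the copies of genes that arose by reverse transcription of a messenger RNA.

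Mettl3 itself had no input level in the deposited table of levels and 1 peak, in the 3' UTR, in the KO list and 0 in the WT list, so the deletion could not be checked here. Of 8 macrophage markers, 5 had a listed input level, and these summed to 8037 FPKM in KO and 11940 FPKM in WT (fragments scaled to transcript length and sequencing depth). Lyz2, the locus that drives Cre, made up most of both sums, at 6615 FPKM in KO and 10533 FPKM in WT. Adgre1 was at 269 FPKM in KO and 247 FPKM in WT, Fcgr1 at 58.4 FPKM in KO and 40.6 FPKM in WT, Spi1 at 101 FPKM in KO and 90.5 FPKM in WT, and Cd68 at 994 FPKM in KO and 1029 FPKM in WT. Of 5 neutrophil markers 2 were listed, S100a8 and S100a9, at a summed 137 FPKM in KO and 233 FPKM in WT, and of 4 dendritic cell markers only Itgax was, at 46.7 FPKM in KO and 71.9 FPKM in WT. Of 3 B cell markers Cd79b was listed at 0.734 FPKM in KO and 1.12 FPKM in WT. None of the markers of osteoclasts, T and NK cells, erythroid cells, stromal cells, or mast cells and basophils had a listed level. Levels were listed only for genes with a differential peak, so an unlisted marker is not thereby absent. Of these markers, Ctsk had 2 KO and 0 WT peaks, and Acp5 had 1 KO and 0 WT peaks. Col1a1 had 1 KO and 2 WT peaks, and Col1a2 and Alas2 had 1 peak in each list. The others had no peak in either list. The part of other cells in the results was not tested.

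Some of the peaks with the lowest p-values lay over the start of a gene, in a single-exon transcript with no name or a predicted name. Some peaks had a false discovery rate (FDR) under 0.05 in both lists and held all 250 bases upstream of their assigned gene's RefSeq start. On the chromosomes searched, which did not cover the whole genome (see the processing section), they were found at 15 genes. The stretches of the 7 of these 15 genes with the lowest KO p-values follow, with that of Ccnl1. Ccnl1 is shown because its peak also had one of the 10 lowest differential ratios among the members. The stretches are from RefSeq (GRCm38.p6), read 5′ to 3′ on the strand of the named gene. Capitals mark GGACT, a common m6A sequence, or its reverse complement AGTCC, since the strand of the peak is not given.
P2ry1, chr3:61002535-61002784, plus strand: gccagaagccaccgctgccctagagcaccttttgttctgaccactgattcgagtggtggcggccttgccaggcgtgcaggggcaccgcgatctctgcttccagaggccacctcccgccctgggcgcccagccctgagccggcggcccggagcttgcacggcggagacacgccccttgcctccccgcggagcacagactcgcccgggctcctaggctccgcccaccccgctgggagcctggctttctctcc
H1f0, chr15:79027962-79028211, plus strand: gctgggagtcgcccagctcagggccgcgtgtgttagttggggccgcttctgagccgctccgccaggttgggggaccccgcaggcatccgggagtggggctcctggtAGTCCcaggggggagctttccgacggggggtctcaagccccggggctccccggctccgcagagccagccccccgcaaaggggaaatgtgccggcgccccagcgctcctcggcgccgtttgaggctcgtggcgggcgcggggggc
Atxn7l3b, chr10:112929027-112929276, minus strand: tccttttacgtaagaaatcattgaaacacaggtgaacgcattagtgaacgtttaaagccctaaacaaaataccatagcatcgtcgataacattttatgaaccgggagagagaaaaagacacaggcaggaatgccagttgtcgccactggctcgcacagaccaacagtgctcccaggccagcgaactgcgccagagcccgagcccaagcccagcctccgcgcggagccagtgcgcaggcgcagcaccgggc
Borcs6, chr11:69059525-69059774, plus strand: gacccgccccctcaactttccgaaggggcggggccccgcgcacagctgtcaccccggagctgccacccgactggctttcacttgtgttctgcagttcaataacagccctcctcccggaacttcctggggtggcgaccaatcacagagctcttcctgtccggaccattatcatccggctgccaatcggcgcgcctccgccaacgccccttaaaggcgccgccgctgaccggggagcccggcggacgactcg
Rsbn1l, chr5:20951823-20952072, minus strand: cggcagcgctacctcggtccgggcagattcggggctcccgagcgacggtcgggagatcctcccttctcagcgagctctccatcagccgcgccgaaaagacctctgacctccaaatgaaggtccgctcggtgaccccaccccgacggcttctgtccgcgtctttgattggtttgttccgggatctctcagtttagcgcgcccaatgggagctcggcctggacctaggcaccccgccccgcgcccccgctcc
Poc1b, chr10:99106832-99107081, plus strand: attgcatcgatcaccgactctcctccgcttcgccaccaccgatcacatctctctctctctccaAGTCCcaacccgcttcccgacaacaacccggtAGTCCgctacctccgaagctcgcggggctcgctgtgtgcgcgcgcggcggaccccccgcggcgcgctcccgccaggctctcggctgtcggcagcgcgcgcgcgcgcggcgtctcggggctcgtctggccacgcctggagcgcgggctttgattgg
Slc20a1, chr2:129198523-129198772, plus strand: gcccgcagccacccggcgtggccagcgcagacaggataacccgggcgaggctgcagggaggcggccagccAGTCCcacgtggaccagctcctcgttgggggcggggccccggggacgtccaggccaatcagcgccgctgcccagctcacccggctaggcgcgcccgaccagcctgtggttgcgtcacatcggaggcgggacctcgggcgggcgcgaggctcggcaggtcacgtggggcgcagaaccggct
Ccnl1, chr3:65958250-65958499, minus strand: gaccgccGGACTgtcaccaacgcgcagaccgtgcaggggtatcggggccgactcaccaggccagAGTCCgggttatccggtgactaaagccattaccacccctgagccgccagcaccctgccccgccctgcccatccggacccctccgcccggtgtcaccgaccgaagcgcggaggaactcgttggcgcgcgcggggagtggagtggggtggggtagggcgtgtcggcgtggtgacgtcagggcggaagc

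At P2ry1, a receptor for ADP, the peak spanned chr3:61001907-61003786 in KO with a fold enrichment of 16.5 and a p of 1e-137, and chr3:61002504-61003786 in WT with a fold of 11.2 and a p of 1e-221. Fold enrichment is the authors' ratio of IP over input for a peak, scaled within each genotype's own library pair, and is used here only to describe peaks within a list. The stretches before P2ry1, Atxn7l3b, Borcs6 and Rsbn1l held no GGACT on either strand. At H1f0, the gene of linker histone H1.0, both lists had the peak chr15:79026456-79028612, with a fold of 3.44 in KO and 3.26 in WT. The peak at Atxn7l3b had a fold of 2.97 in KO and 6.04 in WT, that at Borcs6, a subunit of a complex that positions lysosomes, 5.90 in KO and 13.6 in WT, and that at Rsbn1l 13.6 in KO and 9.40 in WT. Poc1b, which encodes a centriole protein, had a peak of fold 40.5 in KO and 16.8 in WT. Slc20a1, a phosphate transporter gene, had one of fold 15.3 in KO and 33.3 in WT. Ccnl1, which encodes a cyclin that acts in splicing, had one of fold 3.31 in KO and 14.5 in WT, and its upstream stretch held the motif once on each strand. In total 16 such stretches were found at the 15 genes, 2 of them at Tmem237, and 8 of the 16 (50.0%) held GGACT on either strand. Of the 32817 RefSeq stretches of the same length that were searched, 38.9% did. On the gene's own strand 3 of the 16 (18.8%) held it, against 21.4% of all those searched. A match describes letters in the window and is not a mapped site.

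A second set of sequences shows peaks that coincided with annotated microRNA hairpins. In both lists a peak spanned exactly the hairpin of Mir6340 (chr2:173701030-173701148, minus strand) and that of Mir6244 (chr9:52115623-52115739, plus strand). The RefSeq sequences (GRCm38.p6) follow, with the mature miRNA in capitals within each hairpin and the seed, bases 2 to 8, in capitals within each mature miRNA. The 2 seeds differ.
Mir6340 hairpin: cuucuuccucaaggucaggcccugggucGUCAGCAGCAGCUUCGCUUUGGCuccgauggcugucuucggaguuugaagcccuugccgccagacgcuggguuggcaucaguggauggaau
miR-6340: gUCAGCAGcagcuucgcuuuggc
Mir6244 hairpin: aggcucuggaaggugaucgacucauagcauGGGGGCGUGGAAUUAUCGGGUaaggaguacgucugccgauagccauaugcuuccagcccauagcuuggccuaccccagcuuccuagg
miR-6244: gGGGGCGUggaauuaucgggu

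The peak at Mir6340 had a fold of 1.97 (FDR 0.0380) in KO and 2.60 (FDR 3.09e-05) in WT. The listed input level of Mir6340 was 0 FPKM in KO and 0.00986 FPKM in WT. The peak at Mir6244 had a fold of 4.33 (FDR 0.0871) in KO and 9.18 (FDR 0.0372) in WT. In both lists, each of these 2 hairpin peaks shared bases with 2 peaks of the other list, 1 of them a member. The edges of the hairpin peaks are those of the annotated transcript, and the fragments sequenced were of poly(A) RNA. The peaks therefore do not show that the processed miRNA carried the mark. Neither hairpin held GGACU, which 82 of the 1005 mouse hairpins in RefSeq did (8.16%). Mir1957b had a peak over its whole 123-base transcript in both lists, with a fold of 8.27 in KO and 15.3 in WT. A peak over the Mir6363 hairpin was listed in KO alone, with a fold of 2.21 and an FDR of 0.267, and it shared bases with a WT peak of another annotation. The Mir6363 hairpin did hold GGACU, inside its mature miRNA. The Mir425 hairpin lay inside a WT peak of fold 5.10 with an FDR of 0.193. The mature miR-692 of Mir692-2 lay inside a KO peak of fold 2.02 with an FDR of 0.122. Peaks were also assigned by gene name to Mirlet7i (KO fold 5.90, FDR 0.107) and Mir692-3 (KO fold 1.15, FDR 0.000575), but neither covered a RefSeq hairpin or mature miRNA.

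The rule gathered several kinds of transcript. By the gene that the annotation names, 50 of the KO peaks and 36 of the WT peaks lay in compact coding genes, those with a RefSeq extent close to the length of the single-exon transcript. Another 90 KO and 77 WT peaks lay in longer coding genes, which have a single-exon transcript beside an extent that is much longer or a spliced transcript. Pseudogenes held 101 KO and 73 WT peaks (29.4% of the KO members and 23.2% of the WT members), and noncoding RNAs 17 KO and 18 WT peaks. Genes with no name in the files or with a predicted or Rik name held 75 KO and 96 WT peaks, entering because the assigned gene had another name, and 10 KO and 15 WT peaks were of other named genes. The annotated gene was the assigned gene in 264 KO peaks (77.0%) and 215 WT peaks (68.3%).

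**Figure D1:**
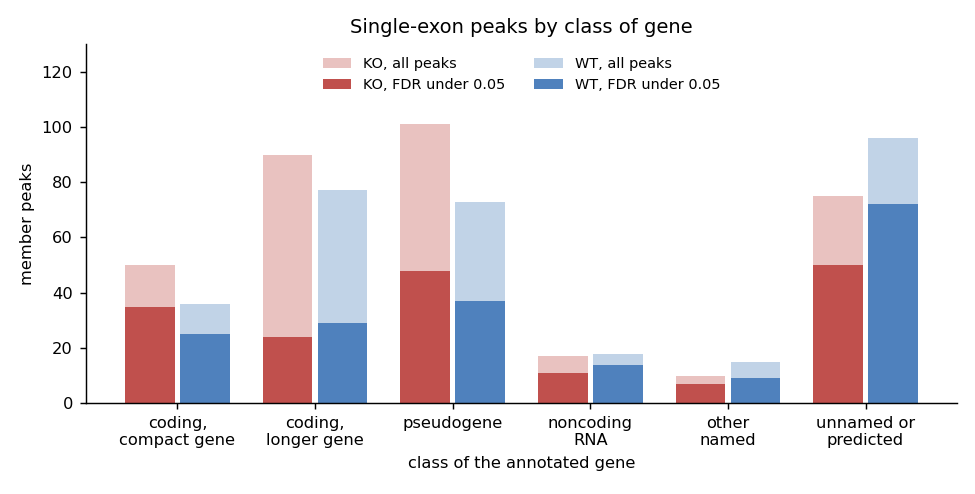
Number of single-exon peaks (vertical axis) by class of the annotated gene, KO bars left of WT bars, with the darker part showing peaks with an FDR under 0.05. In longer coding genes 24 of 90 KO peaks and 29 of 77 WT peaks passed, against 35 of 50 KO peaks and 25 of 36 WT peaks in compact coding genes.

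An FDR under 0.05 was reached by 175 of the 343 KO members (51.0%, interval 45.6% to 56.4%), against 64.9% of the whole KO list, and by 186 of the 315 WT members (59.0%, interval 53.4% to 64.5%), against 70.2% of the whole WT list. The share was close to that of peaks in exons of spliced transcripts, 50.9% in KO and 58.8% in WT. It differed by class. Of peaks in compact coding genes 70.0% passed in KO and 69.4% in WT, and of those in longer coding genes 26.7% passed in KO and 37.7% in WT. The median fold was 5.31 in KO, where the whole list had 3.15, and 5.10 in WT, where the whole list had 3.74. Repeated values were common: 38 KO members (11.1%) had the same fold of 7.08 and p of 0.039, a pair found in 3.73% of the whole KO list. In WT, 21 members (6.67%) had a fold of 7.14 and a p of 0.033, a pair found in 2.92% of the whole WT list.

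The 10 genes with the highest fold among the KO members were AA414768, Zxda, Ahnak2, Gphn, Poc1b, BC043934, Pdgfa, Mir5103, Amigo3 and Hspa1b. Among the WT members they were Ahnak2, BC043934, Rpl35a-ps6, Gphn, Mir5103, AA414768, Tmem33, Ergic2, D1Ertd622e and Btbd9. These names are those of the assigned genes. By annotation, the peaks of Gphn, Poc1b, Pdgfa, Mir5103, Tmem33, Ergic2 and Btbd9 lay in unnamed, predicted or Rik genes. That of D1Ertd622e lay in the pseudogene AC099860. AA414768, an expressed sequence on the X chromosome that RefSeq lists as coding, had a peak over its whole length of 1257 bases (chrX:12936872-12938128), with a fold of 72.1 in KO and 48.2 in WT. Zxda, an X-linked zinc finger locus that RefSeq lists as a pseudogene, had a fold of 55.5 in KO and 11.2 in WT. BC043934 reached a fold of 39.0 in KO and 72.5 in WT. The peaks assigned to Mir5103 with a fold of 31.9 in KO and 57.1 in WT lay outside its hairpin, and other peaks of the same gene, with an FDR of 0.000891 in KO and 0.0363 in WT, covered it.

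Among compact coding genes, 16 had a member in both lists, 19 in the KO list alone and 10 in the WT list alone, and over all 416 annotated genes the counts were 127, 159 and 130. A gene with a member in 1 list can still have a peak of another annotation in the other, as Cstf2t did. Cstf2t, an intronless paralogue of a subunit of the cleavage stimulation factor of messenger RNA 3' ends, had a KO peak of 1849 bases with a fold of 9.62 and a p of 1e-126 (chr19:31083075-31084923), and the WT peak over it was annotated to the 3' UTR. Fam122a, an inhibitor of protein phosphatase 2A, had a peak over all 855 bases of its transcript (chr19:24476502-24477356), with a fold of 5.37 in KO and 10.7 in WT. Fv1, a gene of retroviral origin that restricts murine leukaemia viruses, had 3 KO peaks with folds of 9.45, 3.54 and 21.3, and 2 WT peaks with folds of 8.50 and 6.12. Bbs10, a chaperonin-like gene of the Bardet-Biedl group, had 2 KO peaks with folds of 5.67 and 2.36, and 2 WT peaks with folds of 8.93 and 3.88. Ubqln2, which escorts ubiquitinated proteins to the proteasome, had 3 peaks in each list, with folds of 1.37 to 1.70 in KO and 1.30 to 1.77 in WT. Rraga, a small GTPase of amino acid sensing, had 1 peak in each list at neighbouring places that shared no base, with a fold of 1.33 in KO and 1.37 in WT.

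**Figure D2:**
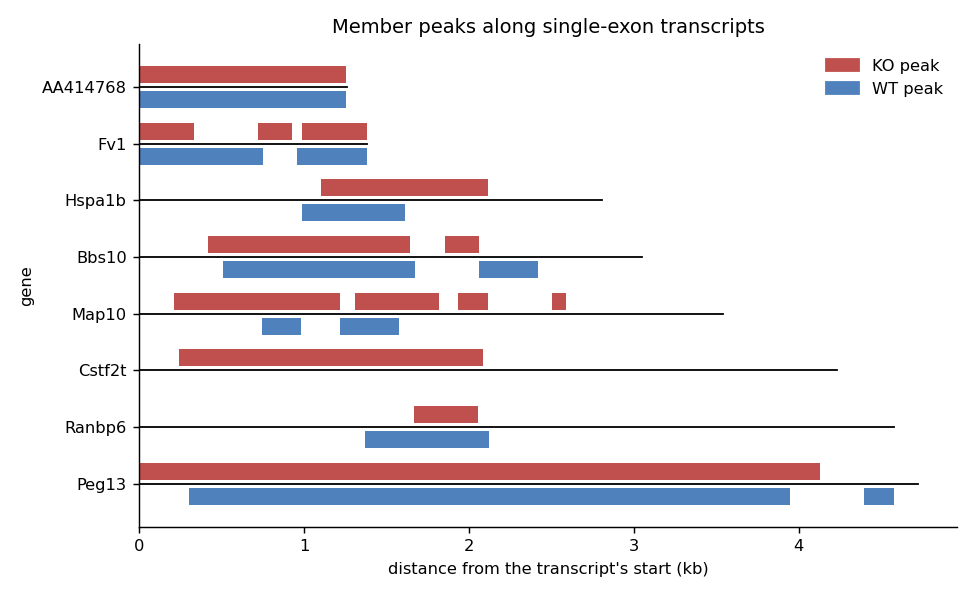
Single-exon peaks along 8 single-exon transcripts, drawn as black lines from the transcript's start (horizontal axis, kilobases), with KO peaks above the line and WT peaks below it. The peaks of AA414768 cover all of its 1257 bases in both lists, and Cstf2t shows no WT bar because its WT peak carried a 3' UTR annotation.

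The inducible HSP70 genes Hspa1a and Hspa1b are near-identical copies, and the sources used here do not say how reads common to both were counted. Hspa1b had a fold of 24.8 in KO and 21.4 in WT. Hspa1a had a KO peak of fold 9.45, which shared bases with WT peaks of another annotation. Of the histone list, H2bc21 had a KO peak in its own transcript, of fold 1.79, which shared bases with a WT peak of another annotation. The peaks assigned to H2ac19 in KO (fold 4.72) and H2ac18 in WT (fold 9.18) lay in the predicted genes Gm20632 and Gm20633, and that of H1f0 in an unnamed one. Of these, H1f0 alone had an FDR under 0.05. Of the G protein-coupled receptors, P2ry1 had a peak in both lists. Hcar2, the receptor of niacin and hydroxybutyrate, had a KO peak of fold 3.07, which shared bases with a WT peak annotated to the 3' UTR. Of the small GTPases and ubiquitin adaptors, Arf6, a small GTPase of endocytosis and actin remodelling, had 2 near-identical peaks in each list, in the predicted gene Gm9887, with folds of 4.25 and 4.41 in KO and 5.18 and 5.26 in WT. Their p-values were 1e-195 and 1e-204 in KO and 1e-281 and 1e-304 in WT. The peak assigned to Kbtbd11, in the predicted gene Gm37844, had a fold of 9.45 in KO (FDR 0.218) and 8.16 in WT (FDR 0.337), and Klhl24 had a KO fold of 5.31 (FDR 0.107). Of the SOX, FOX, KLF and POU factors only Foxd2 had a member, in WT, with a fold of 8.16 and an FDR of 0.337.

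No member was found for the JUN, C/EBP and MAF factors, the Toll-like receptors, the nucleic acid binding single-exon genes, or the surface and coagulation genes. Such genes can still have peaks elsewhere. The JUN, C/EBP and MAF factors had 22 KO and 16 WT peaks, of which 19 KO and 13 WT peaks were annotated to a UTR. A peak annotated to a UTR does not meet the rule, so the members are not all m6A peaks of intronless genes.

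Among noncoding RNAs, Peg13, an imprinted RNA expressed from the paternal allele, had a peak of 4127 bases with a fold of 16.7 and a p of 1e-188 in KO (chr15:72806198-72810324), and one of 3649 bases with a fold of 17.5 and a p of 1e-253 in WT (chr15:72806377-72810025). BE692007 had a fold of 2.44 in KO and 3.51 in WT. Kcnq1ot1, the imprinted antisense RNA of the Kcnq1 locus, had 3 KO peaks with folds of 7.08, 7.08 (FDR 0.689 each) and 15.3 (FDR 0.00275). Its 1 WT peak had a fold of 21.4 (FDR 4.17e-05). Neat1, the RNA around which paraspeckles form, had 2 near-identical peaks in each list at its 5′ end, with folds of 1.19 and 1.20 in KO and 1.30 and 1.32 in WT. Rn7sk, the 7SK RNA that holds the elongation factor P-TEFb inactive, had a fold of 6.13 in KO and 1.77 in WT. Of the noncoding RNAs, 12 had a member in both lists, 2 in KO alone and 1 in WT alone, where all annotated genes had 127, 159 and 130.

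Peaks shared at least 1 exonic base with a peak of the other list in 190 of 343 KO members (55.4%, interval 50.0% to 60.7%), against 61.6% of the whole KO list, and in 189 of 315 WT members (60.0%, interval 54.4% to 65.5%), against 73.4% of the whole WT list. Peaks in exons of spliced transcripts had shares of 57.2% in KO and 57.7% in WT. By class, the compact coding genes shared 44 of 50 KO peaks (88.0%, interval 75.7% to 95.5%) and 30 of 36 WT peaks (83.3%, interval 67.2% to 93.6%). The longer coding genes shared 29 of 90 KO peaks (32.2%, interval 22.8% to 42.9%) and 29 of 77 WT peaks (37.7%, interval 26.9% to 49.4%). The intervals of these classes did not overlap in either list. They treat each peak as independent, but the compact coding genes numbered 35 for the 50 KO peaks and 26 for the 36 WT peaks. No test between the classes was run. Pseudogenes stood near the longer genes, at 34.7% in KO and 45.2% in WT. Noncoding RNAs shared 15 of 17 KO peaks and 14 of 18 WT peaks, and unnamed or predicted genes 78.7% in KO and 76.0% in WT.

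The classes also differed in how many of their peaks passed the FDR, which goes with sharing: 77.7% of KO members and 75.8% of WT members with an FDR under 0.05 were shared, and of those at 0.05 or higher 32.1% in KO and 37.2% in WT. The whole lists had 76.4% in KO and 85.8% in WT under 0.05, and 34.2% in KO and 44.1% in WT at 0.05 or higher. Among peaks with an FDR under 0.05 alone, compact coding genes shared 91.4% in KO (interval 76.9% to 98.2%, n = 35) and 88.0% in WT (interval 68.8% to 97.5%, n = 25). Longer coding genes shared 54.2% in KO (interval 32.8% to 74.4%, n = 24) and 48.3% in WT (interval 29.4% to 67.5%, n = 29). Pseudogenes shared 52.1% in KO and 59.5% in WT, unnamed or predicted genes 98.0% in KO and 86.1% in WT, and noncoding RNAs 11 of 11 in KO and 13 of 14 in WT. Compact coding genes thus stood above longer coding genes in that stratum too, while the order of other classes changed. In 35 of the shared KO members and 39 of the shared WT members, the peak opposite carried another annotation in every case, as at Cstf2t.

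**Figure D3:**
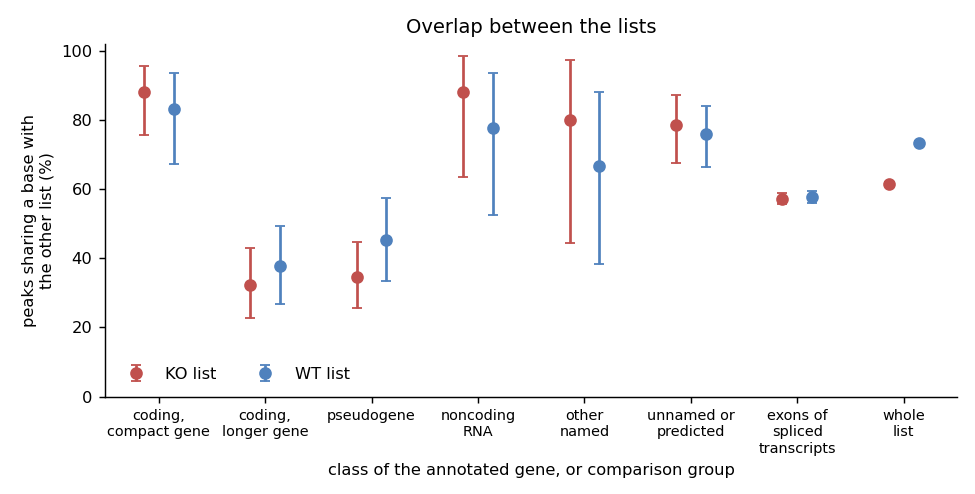
Share of peaks that have at least 1 base in common with a peak of the other list (percent, vertical axis) by class of the annotated gene, KO left of WT, with exact binomial intervals. Compact coding genes (88.0% in KO, 83.3% in WT) stand above longer coding genes (32.2% in KO, 37.7% in WT) and pseudogenes.

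The position of a peak could be set against its own single-exon transcript in 219 KO and 173 WT members. Peaks that span a whole transcript have their middle at its centre by construction, and without them 190 KO and 154 WT members remained. With the transcript cut into 4 equal sections from its start, the middle of the peak fell in 48, 54, 49 and 37 KO members and in 43, 48, 31 and 25 WT members, and outside the listed extent in 2 KO and 7 WT members. The last section held the fewest in both lists. A peak annotated to a UTR does not meet the rule, which removes peaks at the ends of coding transcripts beforehand. The counts therefore do not show where the mark lies along these transcripts. Over all 219 KO and 173 WT members, with those that span a whole transcript included, a peak covered a median of 26.5% in KO and 21.1% in WT. The whole transcript was spanned by 31 of the 248 KO members with a listed extent, 23 of them pseudogenes, and by 24 of 216 such WT members, 15 of them pseudogenes.

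Peaks in single-exon transcripts of unnamed or predicted genes often held a RefSeq transcription start of some gene, 31 of 75 in KO (41.3%, interval 30.1% to 53.3%) and 47 of 96 in WT (49.0%, interval 38.6% to 59.4%). First exons of spliced transcripts held one in 17.3% of KO peaks and 19.4% of WT peaks, and internal exons in 0.822% of KO peaks and 0.719% of WT peaks. These groups are not alike, since peaks in unnamed or predicted genes became members only where the assigned gene had another name. Peaks of that class were also longer, with a median of 646 exonic bases in KO and 898 in WT. First exons had 330 in KO and 329 in WT. The part of either in the shares was not tested. Of the compact coding genes, 3 of 50 KO peaks and 2 of 36 WT peaks held a start, and of the longer coding genes 0 in either list. Tmem33, a membrane protein gene, had such a peak of fold 13.0 in KO and 38.8 in WT, and Elf2, a gene of an ETS factor, one of fold 11.8 in KO and 21.4 in WT. The libraries kept strand, but the only strand in the lists is that of the assigned gene, so the transcript that carried the mark at these starts cannot be told apart from its neighbour.

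The pseudogene peaks were in large part of ribosomal protein copies, 44 of 101 in KO and 36 of 73 in WT. Of these, 20 of 44 KO peaks and 19 of 36 WT peaks were shared between the lists, and of the other pseudogene peaks 15 of 57 in KO and 14 of 37 in WT. Reads of such a copy can also match its parent gene, and the sources used here do not say how reads with several matches were placed, so each value of a pseudogene is uncertain in that respect. Bambi-ps1 had a peak of fold 22.6 in KO and 15.1 in WT, over 562 of its 592 bases in KO and all of them in WT. Rpl17-ps5 was marked at different places in the lists, at chr5:22612628-22612920 in KO with a fold of 2.60 and a p of 1e-109, and at chr5:22612978-22613182 in WT with a fold of 29.9 and a p of 1e-191. Rpl35a-ps2 had a KO peak of fold 5.79 with no WT peak over it, and Rpl35a-ps6 a WT peak of fold 59.2 with no KO peak over it. Rps13-ps1 likewise had a WT peak alone, with a p of 6.3e-86.

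The authors' deposited table of peaks that differed between the genotypes gave, for enrichment in KO against WT, a log2 ratio for the 52 single-exon peaks of 47 genes. The highest p in the authors' deposited table was 0.0490, and peaks tested but not listed are unknown. Of the 52 peaks in the authors' deposited table, 38 (73.1%, interval 59.0% to 84.4%) were lower in KO, against 69.6% of all 6050 listed peaks, and 32 (61.5%) had an FDR under 0.05, against 79.6% of all. The median log2 ratio in the authors' deposited table was -0.51 for the members, and -0.40 over the whole table. Set against that table median instead of 0, 27 of the 52 (51.9%) were lower. Peaks in exons of spliced transcripts were lower in KO in 663 of 746 cases (88.9%) of the authors' deposited table. The shares of the members and of the whole table were near each other.

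By class the direction was uneven. Compact coding genes were lower in KO in 13 of 14 peaks of the authors' deposited table (92.9%, interval 66.1% to 99.8%), with a median log2 ratio of -0.64, and 12 of the 14 lay below the table's median. Unnamed or predicted genes were lower in 12 of 12 peaks of 10 genes in the authors' deposited table, with a median of -0.46, and 6 of the 12 lay below the table's median. Pseudogenes were lower in 7 of 14 peaks of the authors' deposited table, and longer coding genes in 4 of 9, with 6 and 3 below the table's median. Leaving out the pseudogenes, 31 of 38 peaks in the authors' deposited table were lower (81.6%, interval 65.7% to 92.3%). No test of the difference between classes was run.

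Of the compact coding genes, Hcar2 had a log2 ratio of -2.69 in the authors' deposited table (FDR 0.0537), with an input level of 0.418 FPKM in KO and 0.331 FPKM in WT. Fzd1, a Wnt receptor, had -1.58 in the authors' deposited table (FDR 0.0234), with 2.45 FPKM in KO and 3.07 FPKM in WT, and its peak was in the WT list alone. Rnf113a1, a ring finger gene of the spliceosome, had -1.18 in the authors' deposited table (FDR 0.0692). Nap1l2, a nucleosome assembly gene of neurons, was the compact coding gene with a ratio above 0, at 2.39 in the authors' deposited table (FDR 0.0933), with 0.146 FPKM in KO and 0.142 FPKM in WT. Smaller ratios with an FDR under 0.05 in the authors' deposited table were those of Kti12 (-0.83), Zfp579 (-0.81), Zrsr1 (-0.67), Magee1 (-0.63), Fam122a (-0.54), Tmem185b (-0.51) and Cstf2t (-0.19). Chst14, a sulfotransferase of dermatan sulfate synthesis, was listed in the authors' deposited table at -0.64 (FDR 0.0309) and -0.58 (FDR 0.0832) for a pair of overlapping peaks.

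In the class of unnamed or predicted genes, the peak at Smchd1, a chromatin protein gene of X inactivation, lay in an exon of Gm38220 and had a log2 ratio of -3.07 in the authors' deposited table (FDR 0.0575). Ccnl1 had -1.24 (FDR 0.00550) in the authors' deposited table, at 12.2 FPKM in KO and 10.7 FPKM in WT, and Lrrc8a, a subunit of the volume-regulated anion channel, -1.03 (FDR 0.0589). Sephs2, which makes selenophosphate for selenoproteins, had -0.51 (FDR 5.89e-06) in the authors' deposited table, and the peaks at Arf6 -0.33 and -0.31 (FDR 0.000178 and 0.000229). Among longer coding genes, Ccdc71, with the peak in an exon of Klhdc8b, had -1.02 in the authors' deposited table (FDR 0.00589), and Pcdhga1, a clustered protocadherin gene, 3.07 (FDR 0.0525) at 0.113 FPKM in KO and 0.200 FPKM in WT. Inppl1, the gene of the lipid phosphatase SHIP2, had 0.67 in the authors' deposited table (FDR 0.109).

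Ahnak2, a very large scaffold protein, carried the highest folds among the WT members. A peak at chr12:112777635-112781011 had a fold of 52.0 and a p of 1e-252 in KO and a fold of 268 with a p listed at 0 in WT. The middle of this peak lay outside the listed extent of the annotated single-exon transcript in both lists. The authors' deposited table listed Ahnak2 at -0.51 (FDR 0.00182) for a stretch inside this peak. It also listed -0.21 (FDR 0.0776) for a stretch outside it. The input level of Ahnak2 was 11.4 FPKM in KO and 15.8 FPKM in WT.

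Among the 52 single-exon peaks in the authors' deposited table, the lowest 2 ratios were those of pseudogenes, and the highest was that of Pcdhga1, given above. Rpl35a-ps6 had a log2 ratio of -6.25 in the authors' deposited table (FDR 0.0191) at 39.1 FPKM in KO and 37.1 FPKM in WT. Rpl17-ps5 was listed in the authors' deposited table with -5.47 (FDR 2.51e-17) for the stretch called in WT and 1.04 (FDR 3.16e-13) for the stretch called in KO. Its input level was 115 FPKM in KO and 74.7 FPKM in WT, and neighbouring stretches of 1 copy thus had ratios of opposite sign. Rps13-ps1 had -3.00 in the authors' deposited table (FDR 6.31e-13) at 3.75 FPKM in KO and 9.07 FPKM in WT. Rpl35a-ps2 had 2.44 in the authors' deposited table (FDR 2.51e-23) at 38.7 FPKM in KO and 56.5 FPKM in WT. Rps12-ps9 had 1.45, Gpx4-ps2 1.21, Rpsa-ps9 1.09 and Scp2-ps2 0.83, each with an FDR under 0.05 in the authors' deposited table. Of the 9 peaks of ribosomal protein copies among these single-exon peaks, 4 were lower and 5 higher in KO.

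Of the noncoding RNAs, Rn7sk had a log2 ratio of 1.61 in the authors' deposited table (FDR 3.89e-08), with an input level of 12.0 FPKM in KO and 25.2 FPKM in WT. BE692007 had -0.35 (FDR 1.58e-12) and Malat1, an abundant nuclear RNA, -0.13 (FDR 0.000316) in the authors' deposited table. Malat1 was listed at 94.9 FPKM in KO and 84.8 FPKM in WT.

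**Figure D4:**
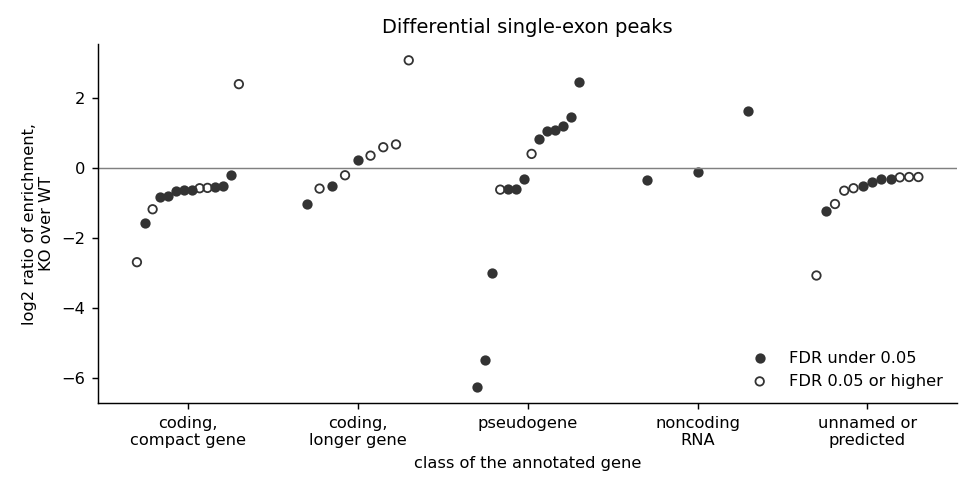
Log2 ratio of enrichment in KO over WT (vertical axis) in the authors' deposited table for the 52 single-exon peaks, 1 point each, by class of the annotated gene and sorted within it, filled where the FDR is under 0.05. Compact coding genes lie below 0 in 13 of 14 peaks, unnamed or predicted genes in 12 of 12, and pseudogenes in 7 of 14, from -6.25 to 2.44.

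Input levels are deposited only for genes with a differential peak. They were listed for 150 of the 418 genes that a member was assigned to, and for 139 with a mean of at least 1 FPKM. Of these, 91 (65.5%) were higher in KO and 48 lower, against 69.0% higher of all 3679 genes with a listed level of that size. The median difference of log2(FPKM + 1), KO minus WT, was 0.06 for them (interval 0.03 to 0.09 from order statistics) and 0.07 for all listed genes. Compact coding genes were higher in KO in 10 of 18 and pseudogenes in 4 of 14, with a median of -0.10 (interval -0.54 to 0.09) on that scale. Rpl10-ps3, a ribosomal protein copy with a KO peak, was at 6.16 FPKM in KO and 32.8 FPKM in WT, and P2ry1 at 3.51 FPKM in KO and 5.26 FPKM in WT. Arf6 was at 101 FPKM in KO and 78.1 FPKM in WT. The members' genes thus stood near the background of listed genes.

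**Figure D5:**
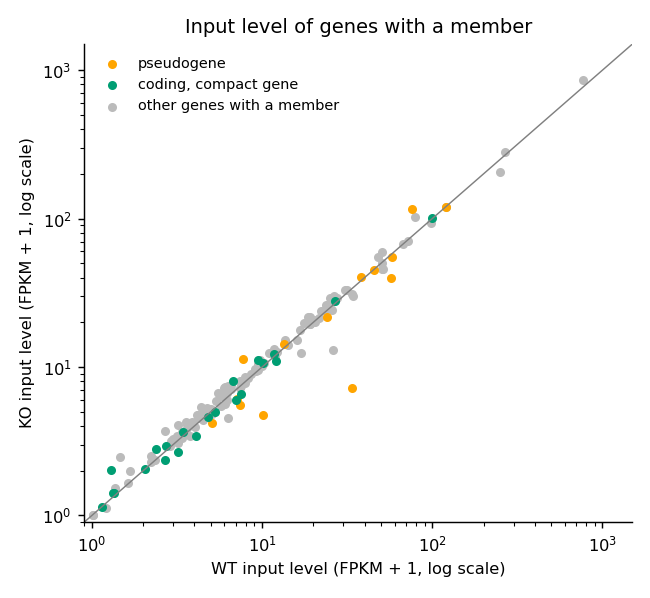
Input level in KO (vertical axis) against WT (horizontal axis), both as FPKM + 1 on log scales, for the genes with a single-exon peak and a listed level, 1 point each, with a line at equal levels. Most points lie near the line, and the pseudogenes Rpl10-ps3 (6.16 FPKM in KO, 32.8 in WT) and Rps13-ps1 (3.75 FPKM in KO, 9.07 in WT) lie below it.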

How the data were processed

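The authors deposited a peak list for each genotype, called on 1 IP and 1 input library, with, per the file headers, each peak's fold enrichment, which is a ratio of its IP to its input, a p-value in the score column, and the log10 of the p and of the FDR. A further deposited table gives a log2 ratio of enrichment in KO against WT, its p-value and FDR, and the gene's input level in FPKM, per the file headers. The build mm10 and the tools edgeR, StringTie, HISAT2, fastp, ChIPseeker and HOMER are named, with no roles, in the submitters' processing notes. The sources used here give neither the peak caller nor read totals.

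Starts in the lists count from 0, since peaks that begin at a transcript's start carry its position minus 1, and are printed counted from 1. Peaks were compared over their exonic blocks, strand ignored, with 1 shared base as the minimum. A gene counted as compact where RefSeq (GRCm38.p6) calls it coding, its extent was at most 1.5 times the transcript or at most 1000 bases longer (at most 4000 bases where the transcript's length was not listed), and no peak was annotated to a spliced transcript of it. These limits were set after the genes' lengths were seen. Of 416 annotated genes, 369 had a name in the files and 324 a RefSeq entry under that name. Shares have exact (Clopper-Pearson) intervals. The overlap and interval functions were tested on simulated data. Named genes were those of the fixed lists, the 10 highest folds of each list, the 10 lowest and 10 highest ratios, and the 10 shared members with the lowest summed ranks of p (AA414768, Ahnak2, Chmp1b, Arf6, Peg13, P2ry1, Gphn, BE692007, H1f0 and Fam122a); others were chosen after their values were seen. The result of 1 of the fixed lists is not reported here. Members and lists were chosen with earlier results of these data known. Motifs in the peaks were not searched, since no genome was used here. Chromosome 18 was left out of the motif search in RefSeq stretches. The 15 genes with a peak over the upstream stretch therefore include none from it, and its members, such as that of Chmp1b, were not ranked with them. Scripts ran in Python 3.11.15 with scipy 1.17.1, pandas 2.3.3, matplotlib 3.10.9 and numpy 2.4.6.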

Additional observations from a re-analysis of the deposited data

How the results depend on the processing

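Of 37 alternatives computed, 18 stayed within the limits set (1.5 times for counts, the interval of the reported value for shares), 19 moved and 0 changed direction. Only the alternatives for differential peaks and input levels could change direction, since member counts and overlap shares have none. Asking for a fold of at least 4 left 208 KO and 191 WT members. Of the KO members left, 48.6% shared a base with a WT peak that met the same limit. A peak p of 1e-10 or lower left 44 KO and 57 WT members. With that limit also set on the other list, the shared portions were 79.5% in KO and 71.9% in WT. Keeping Gm and Rik names gave 888 KO and 784 WT members. Where the annotated gene had to be the assigned gene, 48.1% in KO and 52.1% in WT were shared, and with genes with no spliced transcript alone 63.7% in KO and 66.8% in WT. Overlap of 50% of both peaks gave 34.4% in KO and 36.8% in WT, and members of the other list alone gave 45.2% in KO and 47.6% in WT. Of the differential peaks, 55.6% were lower in KO among those with an absolute log2 ratio of at least 1 (10 of 18), and 51.9% against the table's median. Counting members that share a base once, an alternative chosen after seeing the data, gave 319 KO and 288 WT places, of which 53.3% in KO and 58.3% in WT were shared. The cause of these shifts was not tested beyond the fewer peaks that a stricter setting leaves. The alternatives for motifs in peaks were not run, since no genome was used here. No paired analysis was possible because each genotype had 1 library of each kind. Depth is unknown, so a peak missing from a list cannot be told apart from one below its detection limit.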

Other observations

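Peaks left out by their assigned gene's name outnumbered the members in both lists and stood near them in sharing. Single-exon annotations with a predicted or Rik gene name numbered 545 in KO and 469 in WT, of which 266 KO and 279 WT peaks had an FDR under 0.05. They shared a base with the other list in 293 KO peaks (53.8%) and 287 WT peaks (61.2%). The mitochondrial chromosome held another 11 KO and 15 WT peaks.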
